A study of Mus musculus with 28 samples.

Results

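The genes described here encode the microglial receptor Trem2, its signalling partner Tyrobp, and 6 proteins that carry or restrain the signal inside the cell: Syk, Plcg2, Vav1, Pik3ap1, Inpp5d and Ptpn6. These 8 genes were chosen as members of the pathway by their known function, and all 8 were found by identifier among the 55414 genes in the deposited tables. They were followed through 28 whole-brain libraries of mouse, 7 in each of 4 groups, made with QuantSeq, a protocol that reads a single tag near the 3′ end of each polyadenylated transcript. The model is cuprizone, a copper chelator that kills oligodendrocytes and strips myelin, and myelin returns after it is withdrawn. The first group was naive (CPZ0), the second was taken at the demyelination peak (CPZ5), and 2 groups were in remyelination (CPZ6+1); the sources used here do not state the unit of these codes. The naive group, the demyelination group and one of the remyelination groups were TNFR1ff, that is, they carried loxP-flanked Tnfr1 alleles on a C57BL/6 background. The other remyelination group was mgTNFR1KO (Cx3cr1-CreER.Tnfr1ff), in which tamoxifen switched on a Cre recombinase driven from Cx3cr1, a gene active in microglia and also in other macrophages. Thus the floxed allele was shared by all 4 groups, while the Cre and the deletion were particular to the knockout mice; the sources used here say neither whether the TNFR1ff mice received tamoxifen nor the age and sex of the mice. The design thus follows myelin loss and return, and asks what loss of microglial TNFR1 changes during the return. The labels speak of samples and not of separate animals. Each p-value thus sets a group difference against the spread between these samples, estimated over all 4 groups.

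Trem2 is a lipid-sensing receptor on the surface of microglia, the resident macrophages of the brain. It has almost no inner part of its own and relies on Tyrobp (also called DAP12), an adaptor whose tail carries an immunoreceptor tyrosine-based activation motif (ITAM). Once Src-family kinases phosphorylate the tyrosines of this motif, the kinase Syk docks there and activates the phospholipase Plcg2, the Rac exchange factor Vav1 and, through the adaptor Pik3ap1 (BCAP), phosphatidylinositol 3-kinase. The lipid phosphatase Inpp5d (SHIP1) and the tyrosine phosphatase Ptpn6 (SHP-1) work against this signal. In the mouse, loss of Trem2 is known to blunt the clearance of myelin debris after cuprizone.

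The ITAM of Tyrobp is shown because the whole pathway starts from its pair of tyrosines. It was found by translating the longest reading frame of the GENCODE M21 Tyrobp transcript, a gene on chromosome 7 of the mouse build GRCm38, and searching for the tyrosine motif. It covers codons 92 to 106 of 114, and capitals mark the tyrosine codons.
Tyrobp ITAM, coding strand: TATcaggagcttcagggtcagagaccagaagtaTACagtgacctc

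Promoter stretches are shown for 2 members that rose in demyelination, Trem2 and Ptpn6, and for Inpp5d, which did not pass the test. They are the 150 bases that end just before the annotated start, from RefSeq on GRCm38.p6, 5′ to 3′ on the gene's own strand. Trem2 lies at chr17:48346251-48346400 on the plus strand, Ptpn6 at chr6:124738710-124738859 on the minus strand and Inpp5d at chr1:87620162-87620311 on the plus strand. Capitals mark GAGGAA, the core bound by the macrophage factor PU.1, read on either strand (TTCCTC on the other).
Trem2 promoter: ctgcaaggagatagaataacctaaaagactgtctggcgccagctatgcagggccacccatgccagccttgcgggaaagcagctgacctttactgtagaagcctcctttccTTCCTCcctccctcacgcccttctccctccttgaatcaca
Ptpn6 promoter: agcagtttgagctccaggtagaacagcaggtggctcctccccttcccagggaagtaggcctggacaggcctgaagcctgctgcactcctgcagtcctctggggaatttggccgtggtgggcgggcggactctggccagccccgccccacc
Inpp5d promoter: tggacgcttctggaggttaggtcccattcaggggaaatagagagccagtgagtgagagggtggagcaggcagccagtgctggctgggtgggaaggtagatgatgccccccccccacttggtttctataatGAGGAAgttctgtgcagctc
The RefSeq table held a window of 300 bases, 250 before the start and 50 after it, for 7 members, 8 windows in all because Syk has a pair of starts. GAGGAA was present in the windows of 5 of these 7 genes, Trem2, Inpp5d, Pik3ap1, Vav1 and Syk, and in neither the Plcg2 nor the Ptpn6 window. Of all 32841 windows in the table, 28.3% held it. TGANTCA, a loose form of the AP-1 motif with any base at N, occurred in the Trem2 window, as TGAATCA, and in 7.81% of all windows. The stricter AP-1 motif, with C or G at N, was not counted, and the Trem2 match is not of that form. The E-box CACGTG occurred in the Pik3ap1 and Plcg2 windows and in 7.15% of all windows. A match is a description of the letters and not a binding site.

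Library totals lay between 1522919 and 3137252 counts, so that 3 counts, taken as the floor of detection, equalled 0.956 to 1.97 CPM, the count scaled by library size that serves as the level of a gene throughout. The share of counts taken by the most abundant gene, for which no symbol was found, was 1.33% in knockout library 1 and 25.54% in naive library 1, and these 2 libraries stood apart from the rest. Tnfrsf1a, the deleted gene, was at 16.5, 21.8 and 30.4 CPM (lowest, median and highest of 7) in knockout libraries and at 15.6, 23.8 and 28.8 CPM in remyelination libraries. That level checks nothing about the deletion, since a 3′ tag may lie outside the deleted part and other brain cells express the gene. Among markers of the studied cells, all 12 genes of a microglia identity list (Cx3cr1, P2ry12, Tmem119, Csf1r and others) had counts in every group, and all 7 oligodendrocyte markers were called lower in demyelination than in naive brains. All 28 libraries entered a single edgeR fit with a mean for each group, and a gene was called changed at an adjusted p below 0.05 over the 12423 genes that passed a filter on low counts. Of the 8 members, Trem2, Tyrobp, Inpp5d, Pik3ap1 and Ptpn6 passed it. Syk, Plcg2 and Vav1 did not, and their fold changes come from a fit of 26337 genes without the filter. The filter asked for at least 4.97 CPM in 7 libraries; Ptpn6 reached that in 1 naive, 7 demyelination, 3 knockout and 3 remyelination libraries, and Pik3ap1 in 0, 5, 2 and 4 in the same order. Outside demyelination Pik3ap1 thus reached it in fewer than the 7 libraries asked for.

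**Figure D1:**
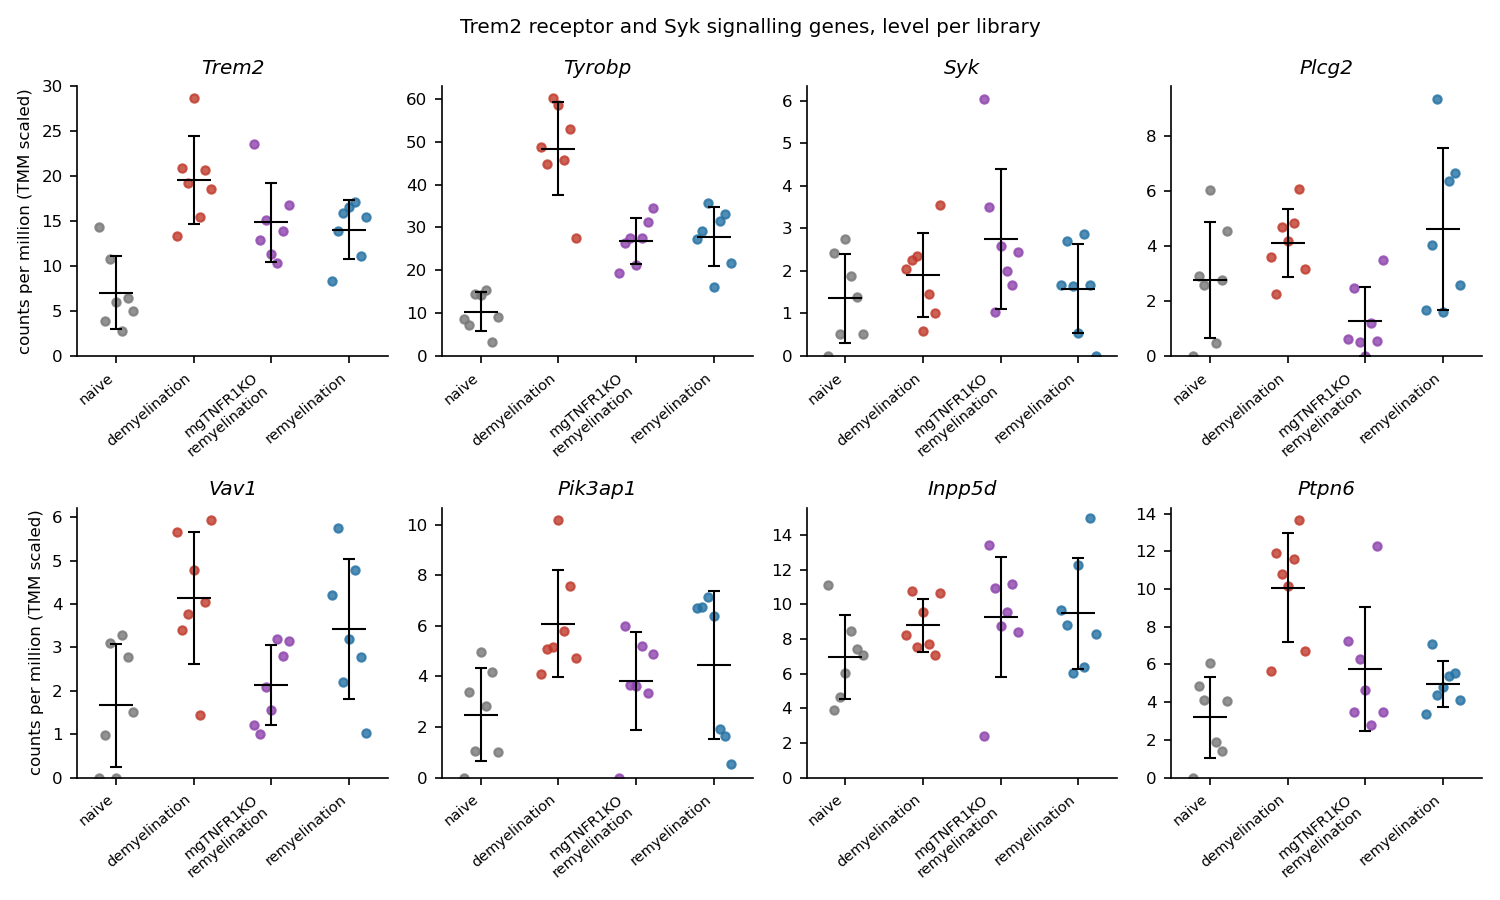
Level of each of the 8 genes in CPM, scaled by the trimmed mean of M-values (TMM), in the 28 libraries. Each point is a library, the long dash is the mean of 7 and the bars are 1 SD; Tyrobp in demyelination libraries sits between 27.7 and 60.2 CPM, above every naive library, while the groups of Syk overlap throughout.

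At the peak of demyelination, the receptor and its partner rose together with a phosphatase that restrains them. Tyrobp was 4.63-fold higher than in naive brains, Ptpn6 3.03-fold and Trem2 2.86-fold, whereas Inpp5d, the other phosphatase, stood at 1.28-fold and was not called. Thus 3 of the 8 members were called higher and none lower, where 1.30% of all tested genes were called higher. Over the 8 members the median log2 fold change without the filter was 1.22, and all 8 values were positive; the median of all tested genes was -0.01.

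Trem2 (ENSMUSG00000023992.15) measured 13.4, 19.3 and 28.7 CPM (lowest, median and highest of 7) in demyelination libraries, against 2.82, 6.05 and 14.3 CPM in naive libraries. Of the demyelination libraries, 6 lay above every naive one, and the overlap came from naive library 1, the highest of its group. In log2 terms the fold change was 1.52 (SE 0.262, adjusted p = 0.000152), and 1.73 (adjusted p = 5.71e-06) without the 2 libraries that stood apart.

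Tyrobp (ENSMUSG00000030579.11) measured 27.7, 48.8 and 60.2 CPM in demyelination libraries, against 3.24, 9.10 and 15.5 CPM in naive libraries. It was the sole member whose demyelination and naive libraries did not overlap, a separation upward that 0.910% of all tested genes showed. The log2 fold change of 2.21 (SE 0.2204, adjusted p = 1.09e-09) placed Tyrobp 15th of the tested genes by p-value. Tyrobp and Trem2 proteins pair on the cell surface, and the ratio of their tags is given as a description. Whether it differed between groups was not tested, and the naive ratio rests on 138 Tyrobp and 88 Trem2 counts. For every Trem2 count, the pooled libraries held 1.57 Tyrobp counts in naive, 2.46 in demyelination, 1.87 in knockout and 1.99 in remyelination brains, with naive libraries ranging from 0.5 to 5.5.

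Ptpn6 (ENSMUSG00000004266.16) measured 5.65, 10.8 and 13.6 CPM in demyelination libraries, against 0, 4.04 and 6.05 CPM in naive libraries. All but 1 of the 7 demyelination libraries exceeded every naive library. The fold change in log2 units was 1.60 (SE 0.374, adjusted p = 0.00869). The naive value of 0 came from naive library 1, and without the 2 libraries that stood apart the fold change was 1.43 (adjusted p = 0.014). Inpp5d (ENSMUSG00000026288.15), by contrast, measured 7.07, 8.22 and 10.8 CPM in demyelination libraries and 3.88, 7.08 and 11.1 CPM in naive libraries. No demyelination library exceeded the highest naive one, and the log2 fold change was 0.36 with a 95% interval of -0.22 to 0.93 (adjusted p = 0.633).

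The signal carriers between receptor and phosphatases were scarce. Pik3ap1 (ENSMUSG00000025017.11), the adaptor to phosphatidylinositol 3-kinase, measured 4.11, 5.17 and 10.2 CPM in demyelination libraries against 0, 2.82 and 4.95 CPM in naive libraries. Its log2 fold change of 1.21 (SE 0.483) had an unadjusted p of 0.0148 and an adjusted p of 0.217. Here too the naive 0 was naive library 1, and without the 2 libraries that stood apart the value was 1.05 (adjusted p = 0.227). Vav1 (ENSMUSG00000034116.18) summed to 59 counts in demyelination and 24 in naive libraries, a log2 fold change of 1.23 with an adjusted p of 0.324 in the fit without the filter, which called 1.14% of its genes. Both genes lay above all naive libraries in most demyelination libraries, 5 of 7 for Pik3ap1 and 6 of 7 for Vav1, without passing the test. The share of all genes that separated as far was not counted. Naive libraries held at most 7 Vav1 counts each, and 2 of them held 0. Syk (ENSMUSG00000021457.15), the kinase that docks on the ITAM, summed to 28 demyelination and 19 naive counts, with a log2 fold change of 0.46 (95% interval -0.82 to 1.74, adjusted p = 0.839). For Plcg2 (ENSMUSG00000034330.11), the phospholipase that releases calcium, 58 and 38 counts gave a log2 fold change of 0.54 (95% interval -0.47 to 1.55, adjusted p = 0.68). The upper bounds of both intervals lay above the log2 fold change of Trem2, so that neither interval excluded a change of that size.

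**Figure D2:**
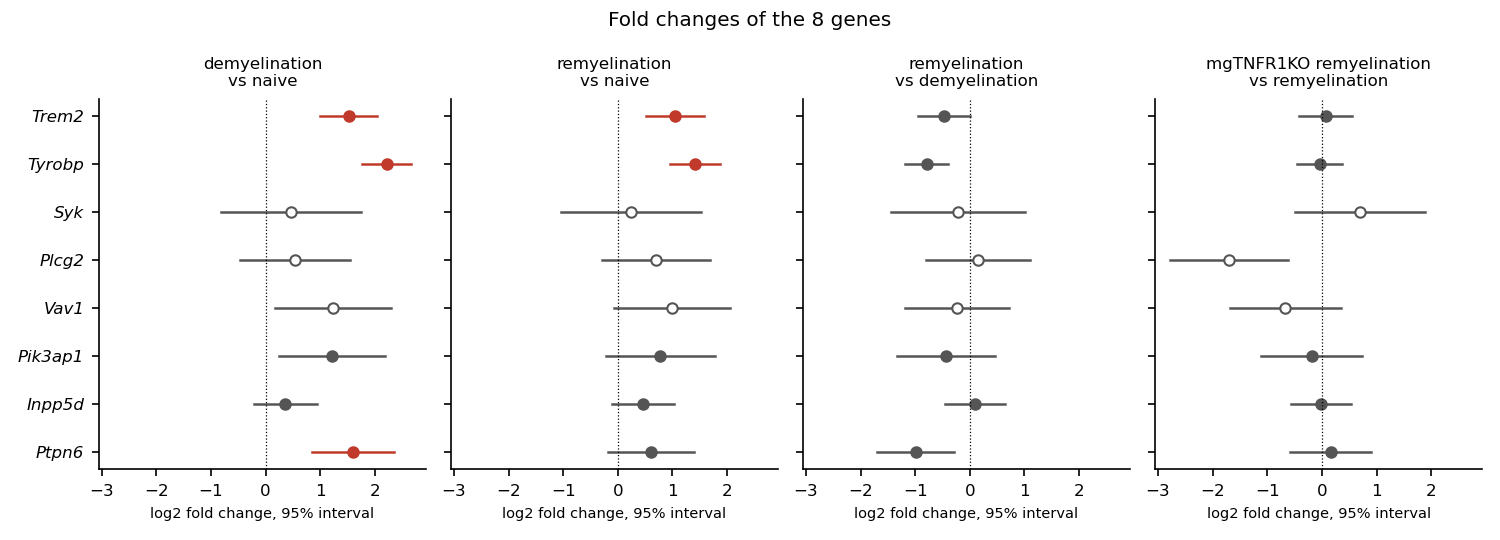
Log2 fold change (point) with its 95% interval (line) of each of the 8 genes in 4 comparisons, named above each panel with the group on top of the fold change first. Filled points were tested after the low-count filter and open points come from the fit without it; red marks an adjusted p below 0.05, reached by Trem2, Tyrobp and Ptpn6 in demyelination, by Trem2 and Tyrobp in remyelination against naive, and by no gene in the other panels.

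In remyelination, a comparison that shares the naive libraries with the one above, the receptor pair was still above naive, while Ptpn6 was not called. Here 2 members were called higher, where 0.451% of all tested genes were called higher. Tyrobp measured 16, 29.1 and 35.8 CPM in remyelination libraries, against 3.24, 9.10 and 15.5 CPM in naive libraries. Even the lowest remyelination library exceeded the highest naive one, as was so for 0.435% of all tested genes, and the fold change in log2 units was 1.42 (SE 0.226, adjusted p = 9.43e-05). Trem2 measured 8.39, 15.5 and 17.2 CPM in remyelination libraries against 2.82, 6.05 and 14.3 CPM in naive libraries, a log2 fold change of 1.05 (SE 0.266, adjusted p = 0.0456). The ranges overlapped, with 4 remyelination libraries above all naive ones. This Trem2 call was lost when any 1 of 10 libraries was left out, namely naive 2, 4, 5, 6 or 7 or remyelination 2, 3, 4, 5 or 7 (adjusted p of 0.0779 to 0.145), and it stood at an adjusted p of 0.0033 without the 2 libraries that stood apart, one of which was naive library 1. Ptpn6 was at 3.36, 4.80 and 7.10 CPM in remyelination libraries, with a log2 fold change against naive of 0.61 (95% interval -0.19 to 1.40, adjusted p = 0.601). Inpp5d and Pik3ap1 had log2 fold changes of 0.45 and 0.78 and adjusted p of 0.588 and 0.593.

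Set directly against demyelination, the remyelination group had negative log2 fold changes for Tyrobp and Ptpn6, yet edgeR called 0 of the 8 members, where it called 0.386% of all tested genes. At an unadjusted p below 0.05 there were 2, Tyrobp and Ptpn6, where 6.65% of all tested genes passed. DESeq2 called 1, Tyrobp, where it called 0.588% of genes, and so did edgeR without the filter, where it called 0.273%. Tyrobp measured 16, 29.1 and 35.8 CPM in remyelination libraries against 27.7, 48.8 and 60.2 CPM in demyelination libraries. A single demyelination library, number 7, accounted for the overlap: 3 remyelination libraries lay below it. In log2 units the fold change was -0.79 (SE 0.194, adjusted p = 0.051 with edgeR and 0.0129 with DESeq2). Without demyelination library 7 or remyelination library 3 the adjusted p was 0.0151 and 0.0433, in that order. For Ptpn6, 6 of the 7 remyelination libraries were below every demyelination library, and the fold change in log2 units was -0.99 (SE 0.348, unadjusted p = 0.00631, adjusted p = 0.413). Trem2 stood at -0.47 (95% interval -0.94 to 0.01, adjusted p = 0.763). Whether the fold changes of Tyrobp and Ptpn6 between these stages differed from that of Trem2 was not tested.

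Between mgTNFR1KO and TNFR1ff brains in remyelination, none of the members was called, and the 95% intervals of Trem2 and Tyrobp stayed within 1 log2 unit either way. Using edgeR, 0 of the 8 members were called, 0 of the 5 tested had an unadjusted p below 0.05 and DESeq2 called 0; over all tested genes the shares were 0.0483%, 7.49% and 0.105%. Trem2 measured 10.4, 13.9 and 23.6 CPM in knockout libraries against 8.39, 15.5 and 17.2 CPM in remyelination libraries. All but knockout library 1, the highest, lay within the range of the controls. The log2 fold change was 0.07 with a 95% interval of -0.42 to 0.55 (adjusted p = 0.963). Tyrobp measured 19.3, 27.6 and 34.6 CPM in knockout libraries and 16, 29.1 and 35.8 CPM in remyelination libraries. Here every knockout library lay within the control range, and the log2 fold change was -0.04 (95% interval -0.45 to 0.36, adjusted p = 0.973). Inpp5d stood at -0.02 (95% interval -0.56 to 0.53), Pik3ap1 at -0.19 (-1.12 to 0.74) and Ptpn6 at 0.16 (-0.58 to 0.90). The signs of these small values depended on single libraries; without knockout library 1 and naive library 1, Trem2 stood at -0.07 and Tyrobp at 0.02.

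Plcg2 was the member with the widest separation between knockout and control. It measured 0, 0.604 and 3.49 CPM in knockout libraries, 21 counts in all, against 1.60, 4.06 and 9.36 CPM in remyelination libraries, 73 counts in all. Of the knockout libraries, 5 were below every remyelination library, and 4 held fewer than 3 counts. The log2 fold change in the fit without the filter was -1.70 (95% interval -2.78 to -0.63, unadjusted p = 0.00162), and the adjusted p over 26337 genes was 0.302, so Plcg2 was not called, where 0.106% of those genes were. The same 21 counts set against the 58 of the demyelination group gave -1.55 (adjusted p = 0.233). Syk, with 39 counts in knockout and 28 in remyelination libraries, had a log2 fold change of 0.69 (95% interval -0.50 to 1.88), and Vav1, with 33 and 59 counts, had -0.67 (95% interval -1.69 to 0.35).

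Knockout brains in remyelination were also set against the naive and demyelination groups, which the TNFR1ff remyelination group was compared with as well, so these comparisons share libraries with those above. Against naive, Tyrobp had a log2 fold change of 1.38 (SE 0.227, adjusted p = 0.000185) with no overlap of libraries, a separation upward seen in 0.563% of all tested genes. Trem2 had 1.12 (SE 0.267, adjusted p = 0.0123). These were 2 members called higher, where 1.54% of all tested genes were called higher. Against demyelination, Tyrobp was lower in knockout brains, with a log2 fold change of -0.84, an SE of 0.195 and an adjusted p of 0.0267; it was the 1 member called lower, where 0.233% of all tested genes were. That call was lost without demyelination library 3, 4 or 6 or knockout library 1 or 4 (adjusted p of 0.0532 to 0.0697), and without both libraries that stood apart (adjusted p = 0.0583). The remyelination controls had -0.79 for Tyrobp in the corresponding comparison, just short of the threshold.

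A whole brain holds few microglia, and in such bulk samples more cells of a type and more RNA per cell cannot be told apart. The summed level of the 12 microglia identity genes was higher in demyelination than in naive libraries, without overlap, and its median was lower in knockout than in remyelination libraries, a pair of groups between which neither Trem2 nor Tyrobp was called. It was 203.7, 250.8 and 262.5 CPM (lowest, median and highest of 7) in naive, 339.7, 382.4 and 428 CPM in demyelination, 251, 291.9 and 348.3 CPM in knockout and 310.4, 331.5 and 369.2 CPM in remyelination libraries. Cx3cr1 alone averaged 26.07 CPM in knockout and 48.9 CPM in remyelination libraries, and the other list genes went both ways between these groups. The summed level was not taken without Cx3cr1. Of the 10 tested list genes 4 rose in demyelination, Csf1r, Fcrls and Cx3cr1 among them; P2ry12, Tmem119, Siglech, Sall1, Selplg and Olfml3 did not pass the test, and P2ry12, Siglech and Tmem119 had log2 fold changes of -0.49, -0.21 and -0.18. The Cx3cr1 call (adjusted p = 0.0437) was lost without demyelination library 1, 2, 3, 4 or 6 or naive library 1, 2, 4, 5, 6 or 7 (adjusted p of 0.0548 to 0.103), and without the 2 libraries that stood apart (0.0668). The part of this difference in the member levels was not tested. Per 100 counts of the list, the pooled libraries held 12.5 Tyrobp counts in demyelination and 4.44 in naive brains. The lowest demyelination library, at 8.14, was above the highest naive library, at 6.18. Trem2 amounted to 5.07 counts per 100 in demyelination and 2.83 in naive brains, and Ptpn6 to 2.61 and 1.42. Inpp5d, at 2.31 and 2.90 counts per 100, was not higher on this scale. Knockout brains had 9.27 Tyrobp, 4.94 Trem2, 3.15 Inpp5d and 1.82 Ptpn6 counts per 100, and remyelination brains 8.33, 4.20, 2.72 and 1.51 in the same order. Within the list, Cx3cr1, the gene that drives the Cre, fell by 0.89 on the log2 scale in knockout against remyelination brains (adjusted p = 0.0365). That call was lost without knockout library 2, 3, 4 or 6 or remyelination library 1, 2, 3, 5 or 6 (adjusted p of 0.0628 to 0.174), and also with library totals (0.084), a fit of the 2 groups alone (0.323) or a replicate block (0.0569). The Cre placed under Cx3cr1 and the loss of TNFR1 came together in the knockout mice. Their parts in this Cx3cr1 difference cannot be told apart and were not tested. With Cx3cr1 taken off the list, knockout brains had 10.2 Tyrobp and 5.44 Trem2 counts per 100, and remyelination brains 9.77 and 4.92.

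White blood cells also use Tyrobp, Syk and Ptpn6, so markers of lymphocytes, monocytes and neutrophils were summed as well. Trbc2, with a mean of 6.375 CPM over the 28 libraries, made up most of the T and NK cell sum. Ighm, with a mean of 14.19 CPM, made up most of the B cell sum. T and NK cell markers (12 genes) summed to 7.11 to 13.2 CPM in demyelination against 3.88 to 13.1 CPM in naive libraries, with Cd3d and Klrb1c at 0 in all 4 groups. The 7 B cell markers summed to 8.68 to 15.6 CPM in demyelination and 9.10 to 25.9 CPM in naive libraries, with Blk at 0 throughout, and the 10 monocyte and neutrophil markers to 1.19 to 5.14 CPM and 2.31 to 7.99 CPM, with Ly6g at 0 throughout. In remyelination libraries the monocyte and neutrophil sum reached 29.7 CPM in 1 library at a median of 1.69 CPM. Border macrophage markers (7 genes) ranged from 4.79 to 20.04 CPM in demyelination and from 5.57 to 15.97 CPM in naive libraries. The red cell list (4 globin genes and Alas2) was abundant, at 515.3, 662.2 and 1157 CPM in knockout, 370.5, 588.1 and 726 CPM in remyelination, 314.8, 326.3 and 408.3 CPM in demyelination and 251.7, 363.5 and 505.4 CPM in naive libraries (lowest, median and highest of 7). All 4 globin genes, the ones tested and near-identical in pairs, so that reads could be split between them, were called higher in knockout than in naive brains, at a median log2 fold change of 1.14, and in knockout than in demyelination brains, at a median of 1.2. Of the 4, 1 was called higher in remyelination than in naive brains, 2 in remyelination than in demyelination brains, and 0 in demyelination against naive or in knockout against remyelination. The part of any of these cells in the member levels was not tested.

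**Figure D3:**
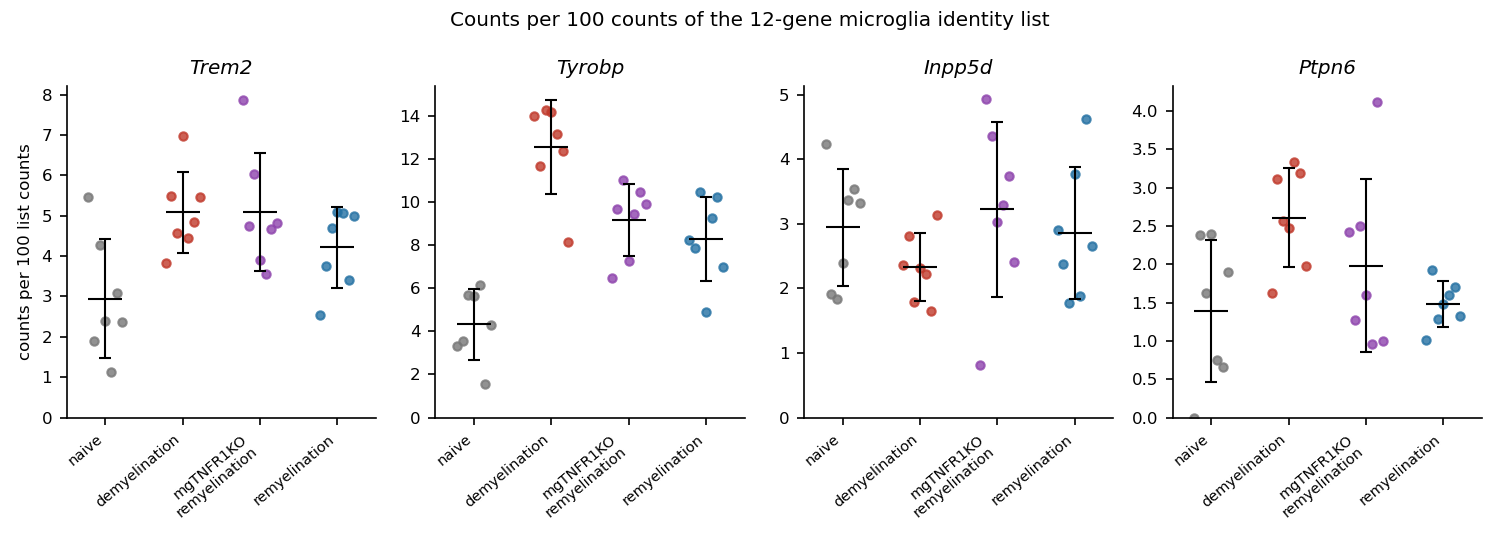
Counts of Trem2, Tyrobp, Inpp5d and Ptpn6 per 100 counts of the 12-gene microglia identity list in each library, with the mean of 7 (long dash) and 1 SD (bars). Tyrobp in demyelination, 8.14 to 14.3 per 100, stays above all naive libraries on this scale, while Inpp5d overlaps between all groups.

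The wider pathway was read from 63 further genes in 9 lists by role, of which 42 passed the filter. In demyelination 10 were called higher and none lower, where 1.30% of all tested genes were called higher and 0.700% lower, at a median log2 fold change of 0.22 over the 42, beside -0.01 over all genes. Extracellular partners and surface receptors made up most of these, and no effector, lipid kinase or inhibitor was among them. At an unadjusted p below 0.05 there were 3 of 8 tested effectors, 1 of 7 inhibitors and 0 of 4 lipid kinases. Of all tested genes 13.3% passed that threshold. The median log2 fold changes of these lists were 0.28, 0.03 and 0.07 in the same order, and only 7 of the 12 listed inhibitors were tested. Whether the lists differed from each other was not tested. Apoe, a lipoprotein that Trem2 binds, averaged 2473 ± 471.4 CPM in demyelination and 1205 ± 105.5 CPM in naive libraries (SD, n = 7 each), a log2 fold change of 1.04 (adjusted p = 3.24e-09). Clu, another lipoprotein ligand of Trem2, averaged 373.9 ± 92.5 and 261.7 ± 14.1 CPM in the same groups, a log2 fold change of 0.51 (adjusted p = 0.00903). Il34, which signals through Csf1r, was the most abundant ligand never called, with 17.7 ± 4.77 CPM in demyelination and 23.6 ± 5.90 CPM in naive libraries.

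Of the 12 partner receptors, 7 were tested and 6 rose in demyelination. They use Tyrobp or its relative Fcer1g, or, like Clec7a, bring Syk to the membrane by themselves. Fcer1g, the second ITAM adaptor of microglia, averaged 24.23 ± 4.997 CPM in demyelination and 8.41 ± 3.85 CPM in naive libraries, a log2 fold change of 1.52 (adjusted p = 8.38e-05). Fcgr3, an Fc receptor that pairs with Fcer1g, had the widest log2 fold change among the tested receptors that were detected in naive brains, at 2.35 (adjusted p = 3.24e-05). Its highest naive library stood at 3.88 CPM, so only the other groups carried it past the filter. Clec7a, a receptor for fungal glucans and a marker of activated microglia, summed to 106 demyelination counts and 0 naive counts, at least 33.5-fold higher when 3 counts over the naive group are taken as the floor. Clec7a likewise passed the filter only through the other groups. The integrin subunits that make up complement receptor 3, Itgb2 and Itgam, had log2 fold changes of 1.71 (adjusted p = 6.17e-06) and 1.01 (adjusted p = 0.0446). Leaving out demyelination library 2, 3, 4, 5 or 6 or naive library 1, 2, 3, 4 or 6 ended the Itgam call (adjusted p of 0.0523 to 0.12). Csf1r, the receptor that keeps microglia alive and also on the identity list, rose by 0.84 on the log2 scale (adjusted p = 1.79e-05). Siglech, a Tyrobp-coupled lectin that is likewise on the identity list, was not called, at 9.48 ± 2.20 CPM in demyelination and 11.2 ± 4.49 CPM in naive libraries.

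Within the cell, Ptprc (CD45), the phosphatase that primes Src-family kinases, averaged 9.23 ± 2.64 CPM in demyelination and 1.65 ± 1.13 CPM in naive libraries, a log2 fold change of 2.40 (adjusted p = 0.000102). Its highest naive library stood at 2.82 CPM, so only the other groups carried it past the filter. Blnk, an adaptor that links Syk to Plcg2, rose by 1.42 on the log2 scale (adjusted p = 0.0293), a call that was lost without demyelination library 3 or 6 or naive library 2, 3, 4, 5, 6 or 7 (adjusted p of 0.0523 to 0.128). The most abundant genes of 5 other lists that were not called in any comparison, all expressed widely in brain, had values near 0. The kinase Fyn had a log2 fold change in demyelination of 0.18, the adaptor Grb2 of 0.00, the kinase Akt1 of 0.07, the calcium channel Itpr1 of 0.05 and the sheddase Adam10 of -0.13. Among the regulators of Trem2 none passed the filter, and Ms4a6d, the most abundant, summed to 50 demyelination and 19 naive counts. Outside the naming rule and singled out after its counts were seen, the inhibitory receptor gene Lilrb4a, which also failed the filter and has a near-identical neighbour that could share its reads, had 53 counts in demyelination, 14 in knockout, 33 in remyelination and 4 in naive libraries.

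**Figure D4:**
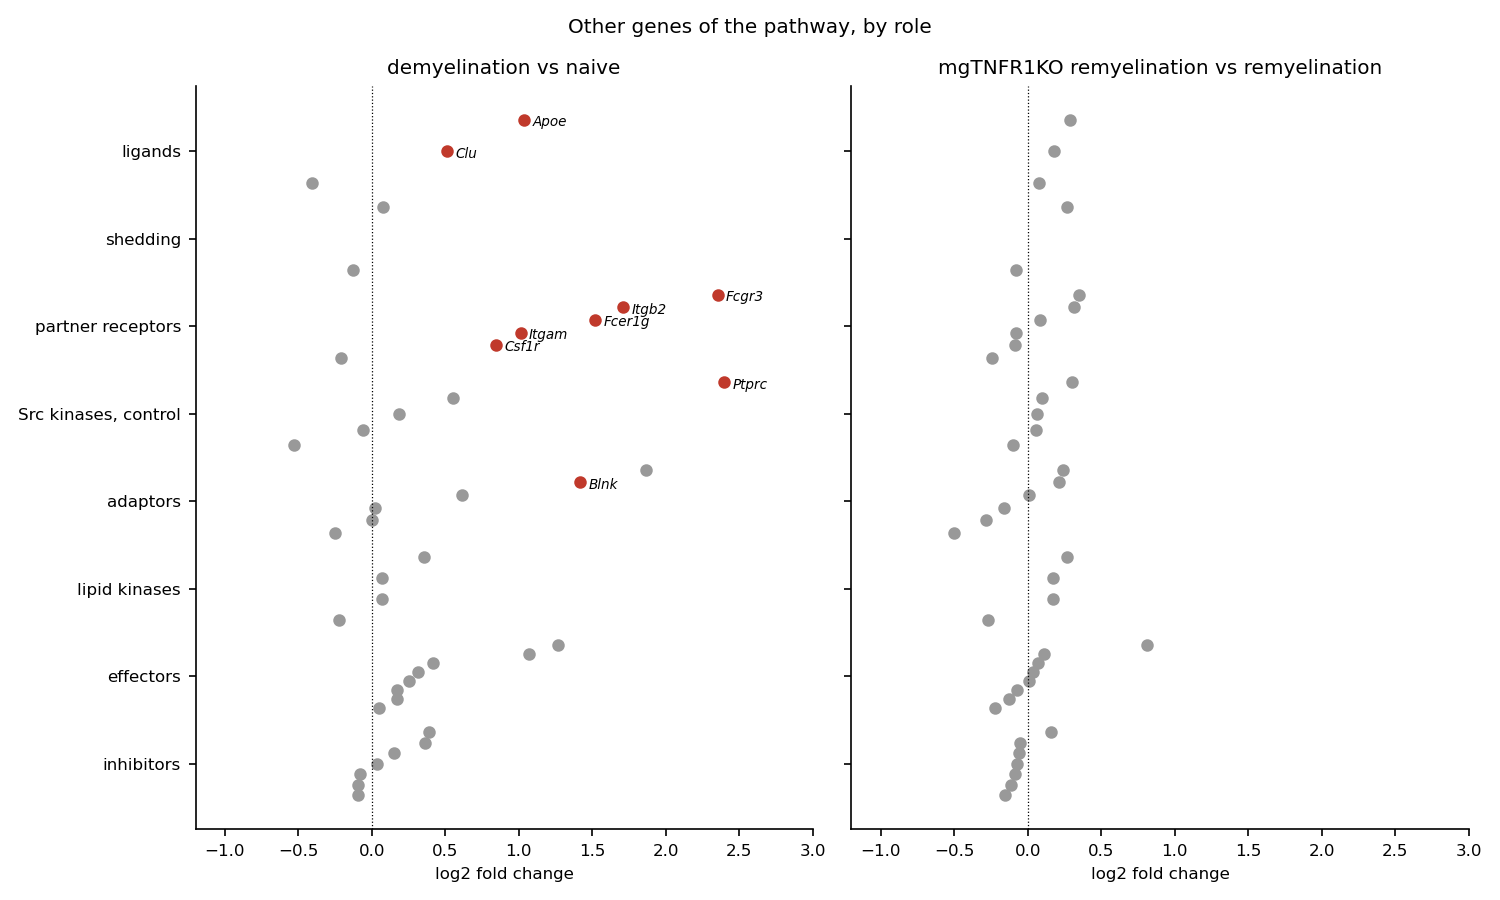
Log2 fold change of the tested pathway genes other than the members, by role, in demyelination against naive and in mgTNFR1KO remyelination against remyelination; each point is a gene and red marks an adjusted p below 0.05. Clec7a is left out because naive libraries held none of it; on the left the 9 genes in red, each labelled, lie above 0, and on the right no gene is called.

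In remyelination against naive, edgeR called 6 of the 42 higher and none lower, where it called 0.451% of all tested genes higher, and DESeq2 called 4. The 6 called by edgeR were Apoe (0.80), Fcer1g (1.28), Csf1r (0.62), Fcgr3 (1.97), Ptprc (1.74), all as log2 fold changes, and Clec7a, with 74 counts against 0 and so at least 20.7-fold higher. The 4 of DESeq2 were not all among them: it called 2 ligands, where edgeR called 1, and 2 partner receptors, where edgeR called 4. DESeq2 gave no adjusted p for Fcgr3, Clec7a and Ptprc, so it passed no verdict on them. The Ptprc call (adjusted p = 0.0276) was lost without naive library 1, 2, 6 or 7 or remyelination library 3, 4 or 6 (adjusted p of 0.0573 to 0.0918). Against demyelination, edgeR called none of the 42 in remyelination, 5 had an unadjusted p below 0.05 and DESeq2 called 1, where the shares of all tested genes were 0.386%, 6.65% and 0.588%. In knockout against remyelination brains edgeR called none, none had an unadjusted p below 0.05 and DESeq2 called none, where the shares of all tested genes were 0.0483%, 7.49% and 0.105%; the log2 fold change of Apoe was 0.18 (adjusted p = 0.714) and that of Fcer1g -0.08 (adjusted p = 0.954).

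Between knockout and naive brains 9 of the 42 genes were called, 8 of them higher, where 1.54% of all tested genes were called higher and 1.71% lower. The higher ones were Apoe (log2 fold change 0.98), Clu (0.51), Fcer1g (1.2), Csf1r (0.53), Itgb2 (0.92), Fcgr3 (1.73), Ptprc (1.80) and Clec7a, the last with 71 counts against 0 and at least 21.5-fold higher. Knockout library 1, one of the 2 that stood apart, held 31 of these Clec7a counts, and without it the bound was 13.7-fold. Csf1r lost its call without knockout library 7 (adjusted p = 0.0609), and Itgb2 without knockout library 3, 4, 5 or 7 or naive library 1, 2, 3, 4 or 7 (adjusted p of 0.0506 to 0.0979). Pik3r1, the regulatory subunit of phosphatidylinositol 3-kinase, fell by 0.51 on the log2 scale (adjusted p = 0.0324), a call lost without knockout library 2, 6 or 7 or naive library 2, 4, 5 or 7 (adjusted p of 0.0595 to 0.0856). Against demyelination, Gab2, a docking adaptor for the same kinase, fell by 1.11 on the log2 scale in knockout brains (adjusted p = 0.0341). Its call was lost without demyelination library 1, 2, 3, 5 or 6 or knockout library 1, 2, 3, 4, 5 or 7 (adjusted p of 0.054 to 0.123). It averaged 6.91 ± 2.53 CPM in knockout, 14.9 ± 3.74 CPM in demyelination, 8.32 ± 2.41 CPM in remyelination and 9.62 ± 4.34 CPM in naive libraries.

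The genes most like Trem2 over the 28 libraries, by Pearson's r of log2(CPM + 1) among tested genes, were Apoe (0.858), the complement gene C1qc (0.845), the astrocyte filament gene Gfap (0.839), the integrin gene Itgax (0.83) and Fcrls (0.816). Among those most like Tyrobp were the cystatin gene Cst7 (0.903), Cd52 (0.879) and the cathepsin genes Ctsd (0.878) and Ctss (0.877). These values describe points that share group, library and depth. With group means taken off, other genes came first, Prag1 for Trem2 (0.76) and Scrg1 for Tyrobp (0.806). Trem2 and Tyrobp themselves had an r of 0.67 over the 28 libraries and of -0.06 with group means taken off.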

How the data were processed

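Each deposited table holds the RSEM gene results of 1 library. The expected counts in it, estimates of reads per gene that need not be whole, are the authors' raw values per the file headers. Tools listed in the submitters' processing notes are STAR and RSEM (alignment and counting tools), cutadapt, FastQC and edgeR, beside the build GRCm39. Versions, settings, strand and annotation release: not given in the sources used here. TPM and FPKM columns were not used. The labels' protocols name TRIzol for RNA extraction and the QuantSeq FWD kit for the libraries. Between 96.59 and 97.69% of the expected counts of a library, with the genes at 0 included as whole, were whole within 0.005, and all were rounded. Symbols came from GENCODE M21 by identifier (52081 of 55414 matched); the others held 10.76% of counts, 16 of them were tested.

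Counts were scaled by TMM, filtered by filterByExpr (minimum count 10) and tested by quasi-likelihood F-tests in edgeR 4.0.16 under R 4.3.3, with Benjamini-Hochberg adjustment over 12423 genes. The common biological coefficient of variation was 19.5%. The smallest chi-square between replicate libraries was 2.54 per degree of freedom, so none was counted as a duplicate. Alternatives were RLE factors, library totals, DESeq2 1.42.0, no filter, 2-group fits, a replicate block, leaving out libraries, and taking out the most abundant gene. Scripts were tested on simulated data. Intervals and the floor cover counting error or replicate spread only, and values of overlapping antisense genes are uncertain.

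Named were all 8 members, pathway genes called in any of the 6 comparisons, the most abundant never-called gene of each list, and the 5 genes most like Trem2 and Tyrobp; a few genes that this rule or the marker lists name are not reported here. Members, lists and tests were chosen with earlier results of these data known.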

Additional observations from a re-analysis of the deposited data

How the results depend on the processing

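The calls of Trem2, Tyrobp and Ptpn6 in demyelination against naive held under every alternative run and without any single library. In remyelination against demyelination, edgeR called 1 member, Tyrobp, in place of 0 under RLE factors (adjusted p = 0.0496), library totals (0.0316), no filter (0.00651), the 2-group fit (0.0315), the removal of the most abundant gene (0.0483) and the removal of knockout library 1 with naive library 1 (0.0364), and so did DESeq2 (0.0129). In remyelination against naive, the 2-group fit called 1 member (Trem2 at 0.0902), and without the 2 libraries that stood apart 0 members were called in knockout against demyelination. The cause of these changes was not tested. Without those 2 libraries the signs in knockout against remyelination turned for Trem2 (-0.066), Tyrobp (0.017), Inpp5d (0.14) and Pik3ap1 (0.0083), none of them called, and Grb2 in demyelination against naive stood at -0.0074, and at -0.00085 with the replicate block.

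Counts over all genes moved as follows, where they moved by more than 1.5 times. Remyelination against naive had 78 called genes, 132 with DESeq2, 122 with no filter and 147 with the replicate block. Remyelination against demyelination had 48, and 73 with DESeq2. Knockout against remyelination had 6, 13 with DESeq2 and 28 with no filter. Knockout against naive had 403, 243 with library totals, 608 with the replicate block and 644 without the 2 libraries. Knockout against demyelination had 75, and 163 with no filter. Library totals moved the split of demyelination against naive to 192 higher and 59 lower calls, from 162 and 87, and that of knockout against remyelination to 4 and 0. DESeq2 gave 69 and 63 in remyelination against naive. The median of all genes moved by less than 0.1 between scalings.

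Leaving out each library in turn gave 3 to 3 called members in demyelination against naive, 1 to 2 in remyelination against naive, 0 to 1 in remyelination against demyelination, 0 to 0 in knockout against remyelination, 2 to 2 in knockout against naive and 0 to 1 in knockout against demyelination. Over all genes the ranges were 172 to 312, 57 to 154 (highest without remyelination library 1), 34 to 56, 4 to 8, 146 to 736 and 48 to 93 (lowest without demyelination library 6). Knockout against naive gave 736 without knockout library 1, 233, 219 and 146 without knockout library 3, 6 and 7, and 205, 257 and 196 without naive library 2, 3 and 5. Signs of uncalled values that turned had ranges of -0.064 to 0.15 (Trem2), -0.13 to 0.025 (Tyrobp), -0.12 to 0.14 (Inpp5d), -0.37 to 0.0071 (Pik3ap1) and -0.13 to 0.29 (Ptpn6) in knockout against remyelination. Inpp5d ranged from -0.043 to 0.18 in remyelination and from -0.031 to 0.23 in knockout against demyelination, and in demyelination against naive Grb2 ranged from -0.028 to 0.036, Akt1 from -0.084 to 0.20 and Itpr1 from -0.0080 to 0.094.

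Replicate numbers were not taken to pair the samples, since only 5 of 42 same-numbered pairs had a correlation of deviations over 0.1; that 11 of 28 libraries correlated best with their own number is a hint from the data, not the design. With the replicate block the count of called members changed in no comparison. Some calls on single pathway genes ended outside the leave-one-out fits: Cx3cr1 in knockout against remyelination with library totals (adjusted p = 0.084), the 2-group fit (0.323) and the block (0.0569); Itgam with no filter (0.0786); Itgb2 (0.0862 with no filter, 0.0885 with the 2-group fit) and Pik3r1 (0.0569 with library totals, 0.0521 with the 2-group fit) in knockout against naive; and, without the 2 libraries, Cx3cr1 in demyelination against naive (0.0668), Ptprc in remyelination against naive (0.0588) and Gab2 in knockout against demyelination (0.0583). Depth limits Syk, Plcg2 and Vav1 most: they summed to 19 to 73 counts per group, and their values rest on the fit with no filter alone.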
